A study of Mus musculus with 18 samples.

Results

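The mRNAs of 3 Cyp2b enzymes of mouse liver (Cyp2b9, Cyp2b10 and Cyp2b13), of the nuclear receptors CAR (gene Nr1i3) and PXR (gene Nr1i2), and of the P450 electron donor POR (gene Por) were followed across 3 groups of mice. These 6 genes were picked by symbol from a table of 54532 annotated genes, and they were picked with their levels in these groups already known, so their levels below are a description and carry no p-value between groups. Liver RNA of 18 male C57BL/6J mice was sequenced, 6 in each group, from mice that entered the study at 6 weeks of age. Normal control mice (NC) ate normal chow, HFD control mice (HFD) ate a high-fat diet for 14 weeks and then received saline, and SZ-A mice ate the same high-fat diet for 14 weeks and then received SZ-A, the alkaloid extract of Ramulus Mori (mulberry twig), with the diet kept on. The saline or SZ-A period is 8 weeks in the deposited description and 6 weeks in the study's methods, and neither names the dose and route given to the sequenced mice. NC6 is titled as a chow mouse but has high-fat diet as its diet label, so the members' differences from NC are also given without it, as are list counts that change without it.

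CAR and PXR are ligand-sensing nuclear receptors of the hepatocyte. Each pairs with the retinoid X receptor on DNA and switches on genes that clear drugs, bile acids and steroids. Cyp2b10 is the usual readout of CAR in mouse liver and Cyp3a11 that of PXR. Cyp2b enzymes are P450 monooxygenases of the endoplasmic reticulum that oxidise drugs, steroids and fatty acids, and they draw their electrons from POR. Cyp2b9 and Cyp2b13 are known as female-predominant genes that the male pattern of growth hormone keeps low, and the mice here were all male.

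The 3 Cyp2b genes are neighbours on chromosome 7 of GRCm38 and lie on the plus strand. Cyp2b10 (ENSMUSG00000030483) spans bases 25897620 to 25926624, Cyp2b13 (ENSMUSG00000040583) bases 26061497 to 26096197 and Cyp2b9 (ENSMUSG00000040660) bases 26173411 to 26210661. The 250 bases before the RefSeq start of each gene (RefSeq, GRCm38.p6) are shown because the 3 genes differed widely in level while sharing much of their sequence. Capitals mark the bases at which Cyp2b9 and Cyp2b13 differ. The windows are chr7:26173159-26173408 for Cyp2b9, chr7:26061245-26061494 for Cyp2b13 and chr7:25897408-25897657 for Cyp2b10, all on the plus strand.
Cyp2b9: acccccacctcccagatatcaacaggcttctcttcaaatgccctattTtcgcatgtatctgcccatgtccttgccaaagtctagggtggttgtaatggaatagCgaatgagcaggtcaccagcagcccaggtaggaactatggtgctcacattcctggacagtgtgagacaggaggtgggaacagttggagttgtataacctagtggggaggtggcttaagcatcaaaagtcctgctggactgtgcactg
Cyp2b13: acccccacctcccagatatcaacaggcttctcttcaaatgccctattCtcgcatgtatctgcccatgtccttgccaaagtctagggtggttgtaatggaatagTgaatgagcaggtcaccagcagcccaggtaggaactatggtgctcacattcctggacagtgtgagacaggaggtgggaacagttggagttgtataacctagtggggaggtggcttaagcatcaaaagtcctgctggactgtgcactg
Cyp2b10: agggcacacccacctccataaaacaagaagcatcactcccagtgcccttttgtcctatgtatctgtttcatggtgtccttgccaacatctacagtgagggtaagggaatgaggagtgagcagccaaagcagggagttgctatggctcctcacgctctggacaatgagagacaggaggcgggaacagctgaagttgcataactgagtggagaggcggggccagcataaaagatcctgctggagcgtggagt

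Cyp2b9 and Cyp2b13 had 248 of 250 upstream bases in common (99.2%), with no gap. Each shared 182 of 260 aligned columns with Cyp2b10 (70.0%), 20 of them gaps. The coding sequences were less alike for the first pair, at 92.7% identity between Cyp2b9 and Cyp2b13, and stood at 86.2% between Cyp2b9 and Cyp2b10 and 87.2% between Cyp2b13 and Cyp2b10. No stretch of 150 bases, the read length, in the transcript of any of the 3 occurred whole in the transcript of another Cyp2b gene. Reads with a mismatch can still be placed on the wrong copy, so the split of fragments among these genes is uncertain.

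Short motifs were searched on both strands of the 250 bases before the RefSeq start of all 6 genes and of 32851 promoters. For Por this window (chromosome 5, bases 135688895 to 135689144) lies inside the gene span given below. The Cyp2b10 window runs past the gene start given above. The receptor half-site AGGTCA occurred once each in Cyp2b9 and Cyp2b13, 138 bases before the start, and in 14.0% of all promoters. The E-box CACGTG, which clock proteins bind, occurred once in Nr1i3, 244 bases before the start, and in 6.02% of all promoters. The half-site AGTTCA (11.8% of all promoters), the STAT5 motif TTCNNNGAA (7.02%), the PAR-bZIP motif TTANGTAA (2.06%) and the TATA box TATAAA (12.4%) occurred in none of the 6 windows, and no match overlapped another. A match is a string of letters in a short window and says nothing on binding.

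Between 17163191 and 20493907 fragments fell on genes in each mouse. FPKM is fragments per kilobase of gene, divided by a library size that the deposited values imply. That size was not the count of fragments on genes. Its ratio to that count ran from 0.9325 to 1.1414 over all mice. The median ratio was 0.979 among NC mice and 1.11 among HFD mice. All 7 hepatocyte markers in the table were measured. Their summed FPKM was 50953 to 74933 for NC mice, 36352 to 58811 for HFD mice and 44314 to 70894 for SZ-A mice. Between HFD and NC 2 of the 7 (Apoa1 and Serpina1a) fell by the limma test used throughout, 6 of 8 stellate cell markers rose and the summed level ran from 42.8 to 60.6 in NC and from 51.4 to 103 in HFD. Of 8 macrophage markers 3 rose, with sums of 91.3 to 195 in NC and 145 to 303 in HFD. Of 4 adipocyte markers only Cfd was high enough to test and it rose, while Adipoq averaged 0.202 FPKM in NC and 0.0913 in HFD and Lep was at 0 in all NC mice. The part of cell make-up in the results below was not tested, and in bulk liver fewer cells of a type and less RNA per cell cannot be told apart. Whether the mice of a group were housed or handled together is not given in the sources used here, so p-values measure the spread between these mice.

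Cyp2b9 was the most abundant Cyp2b mRNA in HFD and SZ-A livers and stayed under 1 FPKM in every NC liver. In NC its level was 0.879, 0.0611, 0.261, 0.105, 0.0658 and 0.311 FPKM in mice 1 to 6, from 57 fragments in all. In HFD it was 81.7, 99.2, 24.6, 179.6, 113 and 31.6 FPKM, and in SZ-A 35.3, 96.5, 27.1, 69.1, 1.01 and 29.7 FPKM. Every HFD mouse lay above every NC mouse, and so did every SZ-A mouse, although SZ-A5 (1.01) came close to NC1 (0.879). HFD and SZ-A overlapped.

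Mean Cyp2b9 was 0.280 ± 0.311, 88.2 ± 57.2 and 43.1 ± 34.0 FPKM in NC, HFD and SZ-A (SD, n = 6 each). On the log2(FPKM + 0.1) scale HFD lay 7.87 above NC (SE 0.53), SZ-A lay 6.33 above NC (SE 0.90), and SZ-A lay 1.54 below HFD, a difference of -1.54 with an SE of 0.92. Without NC6 the differences from NC were 7.95 for HFD and 6.41 for SZ-A. The difference between SZ-A and HFD was -0.65 without SZ-A5 and ran from -1.94 to -0.65 as each mouse was left out.

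Cyp2b13 followed Cyp2b9 at a lower level. It was at 0 in NC mice 1 to 5 and at 0.0565 FPKM (2 fragments) in NC6. The 6 HFD mice had 3.10, 4.50, 0.626, 16.3, 3.34 and 0.279 FPKM, and the 6 SZ-A mice 0.389, 5.78, 0.234, 1.65, 0.0915 and 0.0588 FPKM. All HFD mice lay above all NC mice. SZ-A6 held 2 fragments like NC6, so the order of these mice cannot be told and SZ-A was not set fully apart from NC. HFD overlapped SZ-A.

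Mean Cyp2b13 was 4.69 ± 5.92 FPKM in HFD and 1.37 ± 2.24 in SZ-A (SD, n = 6). With 1074 fragments in HFD, 297 in SZ-A and 2 in NC, the fragment rate in HFD was 477 times that in NC (95% interval 132 to 3946) and the rate in SZ-A 147 times (40.4 to 1222). These intervals cover counting error only. The fitted log2 differences were 4.52 for HFD against NC (SE 0.72), 2.50 for SZ-A against NC (SE 0.81) and -2.02 for SZ-A against HFD (SE 1.02), and those against NC moved with the pseudocount. Without NC6 they were 4.63 and 2.61. Cyp2b13 shares its span with Rnf170-ps, a pseudogene on the same strand that averaged 1.28, 1.88 and 1.22 FPKM in NC, HFD and SZ-A, and fragments of the shared stretch cannot be told apart by position.

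Cyp2b10, the usual CAR readout, differed from the other 2 enzymes in being high in NC1 and NC5. Its median, like theirs, was lowest in NC and highest in HFD. In NC it was 8.18, 0.0543, 0.129, 0.0467, 16.2 and 0.151 FPKM, so NC1 and NC5 held nearly all of the group's 874 fragments. In HFD it was 0.583, 0.453, 1.51, 1.74, 0.665 and 0.719 FPKM, and in SZ-A 0.186, 0.310, 0.570, 0.864, 0.0271 and 0.470 FPKM. All 3 groups overlapped, and the HFD mice fell between the 4 low and the 2 high NC mice.

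The mean of Cyp2b10 was therefore highest in NC (4.13 ± 6.75 FPKM), against 0.945 ± 0.540 in HFD and 0.405 ± 0.297 in SZ-A, while the median was lowest in NC (0.140, against 0.692 and 0.390). The log2 difference of HFD against NC was 0.33 with an SE of 1.13, was 0.02 without NC6 and 1.22 without NC5, and turned to -0.14 without NC4 and to -0.39 with a pseudocount of 1. SZ-A against HFD gave -1.17 (SE 0.47), and -0.45 with a pseudocount of 1. SZ-A against NC gave -0.83 (SE 1.18), was -0.14 without NC1 and -1.15 without NC6, and turned to 0.06 without NC5 and to 0.62 with sample weights. Only genes with a mean of at least 1 FPKM over the 18 mice were tested, and Cyp2b10 met that through NC1 and NC5. The same NC1 held the highest Cyp2b9 of its group (0.879 FPKM) and NC5 one of the lowest (0.0658 FPKM).

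**Figure D1:**
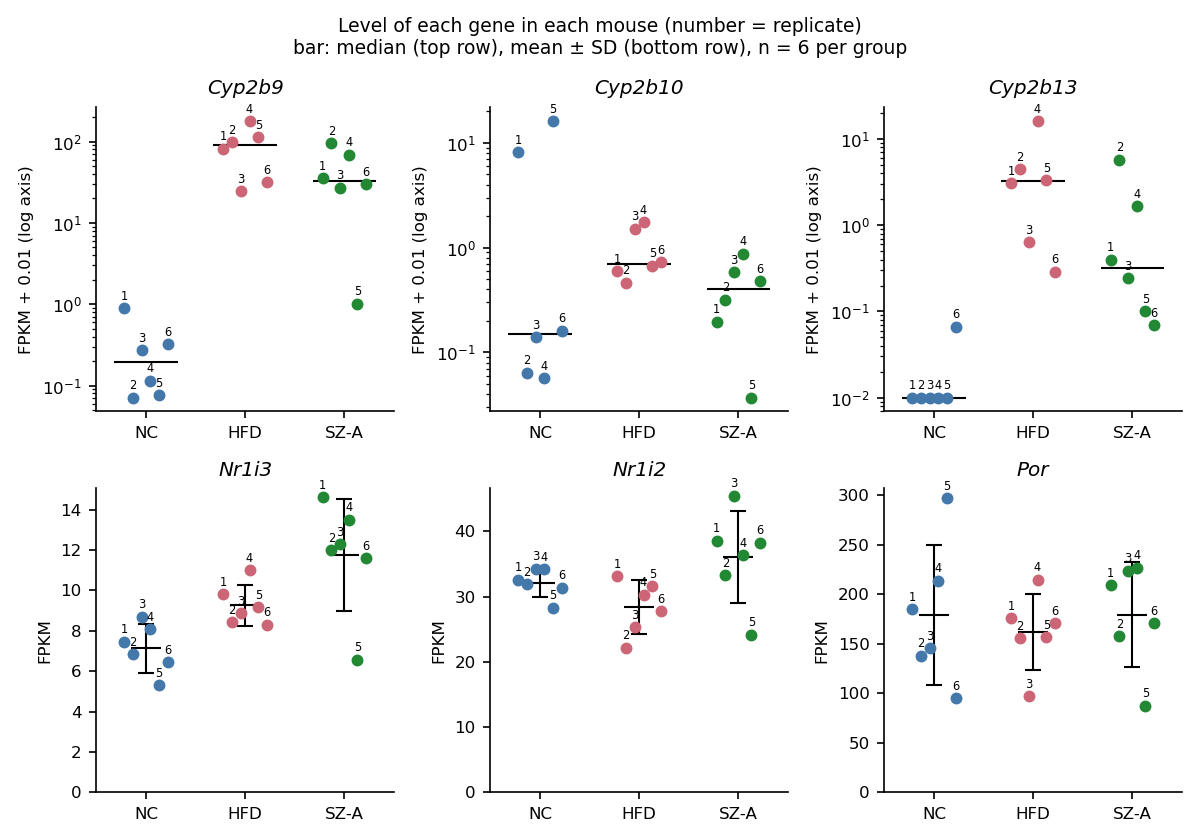
FPKM of each of the 6 genes in each of the 18 mice, by group on the x axis and with the replicate number beside each point. The 3 Cyp2b panels have a log axis of FPKM + 0.01 with a bar at the median, and the 3 lower panels a linear axis with mean and SD. Cyp2b9 ran from 0.0611 to 0.879 FPKM in NC and from 24.6 to 179.6 in HFD, Cyp2b10 was high in NC1 and NC5 alone, and SZ-A5 was the lowest SZ-A mouse for every gene but Cyp2b13.

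The make-up of the Cyp2b mRNA differed with these levels. Summed over the 3 genes, FPKM had a median of 0.454 in NC mice (range 0.115 to 16.3), 94.7 in HFD mice (26.7 to 198) and 33.0 in SZ-A mice (1.12 to 103). Cyp2b9 made up 90.9 to 96.9% of the sum in HFD mice and 89.5 to 98.4% in SZ-A mice, SZ-A5 included. In NC mice its share ran from 0.404% in NC5 to 69.2% in NC4, with Cyp2b10 making up most of the rest. Of the other Cyp2b genes, Cyp2b19, Cyp2b23 and the pseudogene Cyp2b26-ps were at 0 in all 18 mice. The pseudogene Cyp2b27-ps, which lies between Cyp2b10 and Cyp2b13, held 5 fragments in all, in HFD2, HFD4 and HFD5.

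**Figure D2:**
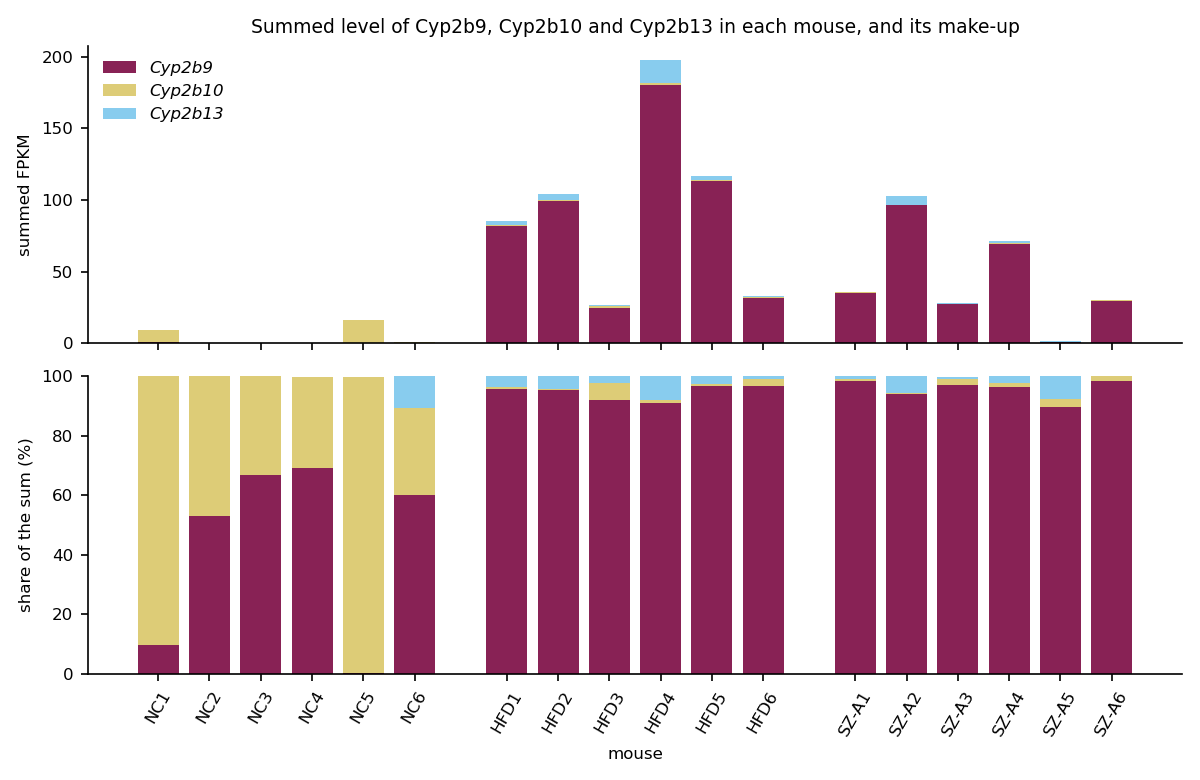
Summed FPKM of Cyp2b9, Cyp2b10 and Cyp2b13 in each mouse (upper panel) and the share of each gene in that sum in percent (lower panel). Cyp2b9 makes up 89.5 to 98.4% of the sum in the 12 mice on the high-fat diet, and Cyp2b10 makes up 99.6% of it in NC5.

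CAR mRNA stood in a narrower range and was highest in SZ-A. Nr1i3 (ENSMUSG00000005677, chromosome 1, bases 171213970 to 171220701, plus strand) was 7.46, 6.83, 8.70, 8.09, 5.32 and 6.45 FPKM in NC. It was 9.81, 8.42, 8.87, 11.0, 9.16 and 8.30 FPKM in HFD and 14.6, 12.0, 12.3, 13.5, 6.57 and 11.6 FPKM in SZ-A. The other 5 SZ-A mice lay above all HFD mice, while SZ-A5 lay below them all, among the NC mice. Only NC3 reached into the HFD range.

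Mean Nr1i3 was 7.14 ± 1.21, 9.26 ± 1.01 and 11.8 ± 2.78 FPKM in the 3 groups in that order (SD, n = 6). The log2 differences were 0.38 for HFD against NC (SE 0.12), 0.31 for SZ-A against HFD (SE 0.16) and 0.69 for SZ-A against NC (SE 0.18). Without SZ-A5 the latter 2 were 0.46 and 0.85, and without NC6 the differences from NC were 0.36 for HFD and 0.66 for SZ-A. With equal total FPKM in every mouse HFD lay 0.57 above NC and SZ-A 0.13 above HFD. Nr1i3 overlaps Tomm40l, a gene of the opposite strand that averaged 1.07, 1.04 and 1.28 FPKM in the 3 groups, and the kit is not stated to mark strand, so reads of the shared stretch cannot be told apart.

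PXR mRNA was more abundant per length than CAR mRNA in every mouse, and its differences from NC were smaller. Nr1i2 (ENSMUSG00000022809, chromosome 16, bases 38248323 to 38294824, minus strand) was 32.6, 31.9, 34.3, 34.2, 28.3 and 31.4 FPKM in NC. It was 33.2, 22.2, 25.3, 30.3, 31.6 and 27.8 FPKM in HFD and 38.6, 33.3, 45.5, 36.4, 24.2 and 38.3 FPKM in SZ-A. The NC mice lay inside the SZ-A range, NC3 and NC4 lay above all HFD mice, and SZ-A5 was again the lowest of its group.

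The group means of Nr1i2 were 32.1 ± 2.25, 28.4 ± 4.14 and 36.0 ± 7.08 FPKM for NC, HFD and SZ-A (SD, n = 6). The log2 differences were -0.19 for HFD against NC (SE 0.10), 0.33 for SZ-A against HFD (SE 0.14) and 0.14 for SZ-A against NC (SE 0.13). Without NC6 the differences from NC were -0.19 and 0.14. The first came to 0.01 and the second to 0.15 once every mouse was given the same total FPKM, a scaling that moved the median over all tested genes from -0.03 to 0.15.

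Por (ENSMUSG00000005514, chromosome 5, bases 135670033 to 135735326, plus strand) was the most abundant of the 6 mRNAs in every group per length. Its level was 185, 138, 146, 214, 297 and 95.5 FPKM in NC, 176, 156, 97.3, 215, 157 and 171 FPKM in HFD, and 209, 158, 224, 227, 87.5 and 171 FPKM in SZ-A. The groups overlapped over most of their ranges. NC5, one of the mice with high Cyp2b10, held the highest Por of all 18, and NC6, HFD3 and SZ-A5 the lowest of their groups.

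Mean Por was 179 ± 70.4, 162 ± 38.3 and 179 ± 53.2 FPKM in the 3 groups (SD, n = 6), with log2 differences of -0.09 (SE 0.25) for HFD against NC, 0.12 (SE 0.24) for SZ-A against HFD and 0.03 (SE 0.28) for SZ-A against NC. The sign of the first turned with single mice, at -0.25 without NC6, 0.07 without NC5 and 0.05 without HFD3. It was 0.03 with sample weights and 0.10 with equal total FPKM. The second was -0.06 with equal total FPKM and -0.02 without HFD3. The last was -0.14 without NC6 and -0.06 without SZ-A4, and fell below 0 without some other mice as well. The opposite-strand genes Gm16061 and Gm43091 overlap Por, and neither passed 1.17 FPKM in any mouse.

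In order of level per length, the 6 mRNAs ran Por, Nr1i2, Nr1i3, Cyp2b10, Cyp2b9, Cyp2b13 by their NC means and Por, Cyp2b9, Nr1i2, Nr1i3, Cyp2b13, Cyp2b10 by their HFD means. In SZ-A means the order was that of HFD. Neighbours in these orders did not overlap between mice for Nr1i2 and Nr1i3 in any group, for Por and Nr1i2 in NC, and for Nr1i3 and Cyp2b13 in SZ-A. Cyp2b9 and Cyp2b13 rested on too few fragments to be ranked in NC mice. All other neighbours overlapped, Cyp2b9 with both Por and Nr1i2 in HFD and SZ-A.

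The call rule over all genes was an adjusted p under 0.05 by limma with Benjamini-Hochberg adjustment, together with a fold change over 1.2. Between HFD and NC 2062 of 10216 tested genes were called (20.2%, with 10.7% called higher and 9.49% lower). There 3 of the 6 members stood past the rule, all higher in HFD (Cyp2b9, Cyp2b13 and Nr1i3). That is not read further, since this contrast was in view when they were chosen. Nr1i3 no longer stood past it without NC2, NC6, HFD1 or HFD4. All HFD mice lay above all NC mice for 5.48% of tested genes, and for 2 of the 6 members. Between SZ-A and HFD 15 genes were called (0.147%) and no member stood past the rule, with SZ-A and HFD mice not overlapping for 1.28% of genes and for none of the members, while 1515 genes had an unadjusted p under 0.05. Between SZ-A and NC 981 were called (9.60%, with 5.31% called higher and 4.30% lower), and Cyp2b9 and Nr1i3 stood past the rule. Without SZ-A5 Cyp2b13 joined them, and Nr1i3 no longer did so without NC2 or any 1 of the other 5 SZ-A mice. All SZ-A mice lay above all NC mice for 2.83% of tested genes, Cyp2b9 among them and Cyp2b13 by no more than 2 fragments in SZ-A6 against 2 in NC6.

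**Figure D3:**
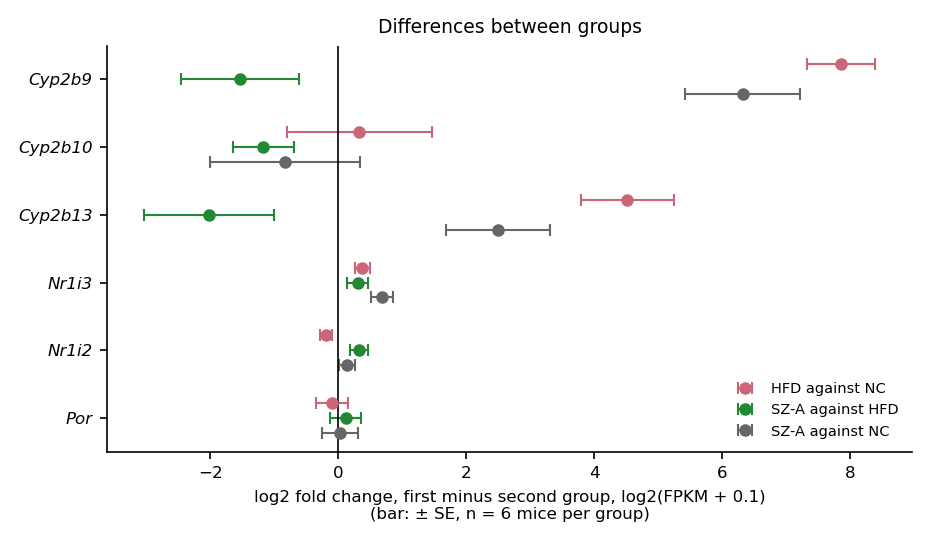
Log2 fold change of each of the 6 genes on the log2(FPKM + 0.1) scale for the 3 comparisons, as points with their SE (n = 6 mice per group). Cyp2b9 and Cyp2b13 lie at 7.87 and 4.52 for HFD against NC, while the 9 values of Nr1i3, Nr1i2 and Por lie between -0.19 and 0.69.

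SZ-A5 was the lowest SZ-A mouse for 5 of the 6 members, and HFD4 the highest HFD mouse for 5 of the 6. Cyp2b13 was the exception in SZ-A, being lowest in SZ-A6, and Nr1i2 the exception in HFD, being highest in HFD1. In the NC group the lowest and highest values were spread over all 6 mice. SZ-A5 had 17191725 fragments on genes, the fewest of its group, where the most was 18956824.

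Pairs of members were compared between mice within each group, on log2(FPKM + 0.1), by exact two-sided permutation tests of 6 mice. With 720 orderings the smallest p that this test can give is 0.002778, which adjusts to 0.125 when 1 of the 45 pairs reaches it, so a single pair could not pass. No pair passed after adjustment, by Pearson's r or Spearman's rho. All 15 pairs had an r above 0 in SZ-A (median 0.77), 13 of 15 did in HFD (median 0.52) and 6 of 15 in NC (median -0.25). The SZ-A values include SZ-A5, the lowest mouse for 5 of the 6 members. Leaving out the 2 mice farthest from the median of the first gene turned some SZ-A pairs negative. Cyp2b9 with Nr1i2 went from 0.71 to -0.70, while other pairs stayed above 0, such as Cyp2b9 with Cyp2b13 (0.92).

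Cyp2b9 and Cyp2b13 had r = 0.95 within HFD (exact permutation p = 0.025, adjusted 0.482) and rho = 0.886 (exact permutation p = 0.0333, adjusted 0.656), which did not pass. Leaving out HFD3 and HFD6, the mice farthest from the median of Cyp2b9, gave r = 0.92. Within SZ-A the pair had r = 0.66 (exact permutation p = 0.0389, adjusted 0.482) and rho = 0.829 (exact permutation p = 0.0583, adjusted 0.656), with r = 0.92 after SZ-A2 and SZ-A5 were left out. In NC Cyp2b13 was above 0 in 1 mouse and the pair cannot be read. The coding sequences of the 2 genes were 92.7% identical, and the part of misplaced fragments in these r was not tested.

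Nr1i3 and Nr1i2 held the same order in all 6 NC mice, with r = 0.98 and rho = 1 (exact permutation p = 0.00278 for each, adjusted 0.125) and r = 0.98 without NC3 and NC5. The pair gave r = 0.62 in HFD (exact permutation p = 0.161, adjusted 0.545) with rho = 0.657 (exact permutation p = 0.175, adjusted 0.777), and r = 0.58 without HFD1 and HFD4. In SZ-A it gave r = 0.84 (exact permutation p = 0.142, adjusted 0.545) with rho = 0.60 (exact permutation p = 0.242, adjusted 0.777), and r became -0.05 without SZ-A1 and SZ-A5 and so rested on those mice.

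Por had its highest r with each receptor in SZ-A, though neither pair passed after adjustment. Its r with Nr1i3 was 0.95 (exact permutation p = 0.0556, adjusted 0.482) with rho = 0.771 (exact permutation p = 0.103, adjusted 0.777), and r was 0.74 without SZ-A1 and SZ-A5. Its r with Nr1i2 was 0.92 (exact permutation p = 0.0472, adjusted 0.482) with rho = 0.657 (exact permutation p = 0.175, adjusted 0.777), and r was 0.50 without SZ-A3 and SZ-A5. Between Cyp2b10, the CAR readout, and Nr1i3 itself the relation could not be told from 0 in any group. In NC r was -0.56 (exact permutation p = 0.294, adjusted 0.602) and rho -0.60 (exact permutation p = 0.242, adjusted 0.777). In HFD r was 0.55 (exact permutation p = 0.275, adjusted 0.589) and rho 0.314 (exact permutation p = 0.564, adjusted 0.882). In SZ-A r was 0.73 (exact permutation p = 0.228, adjusted 0.581) and rho 0.371 (exact permutation p = 0.497, adjusted 0.882), and r became -0.79 without the 2 mice farthest from the median of Cyp2b10. With those 2 left out r was -0.12 in NC and 0.05 in HFD.

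**Figure D4:**
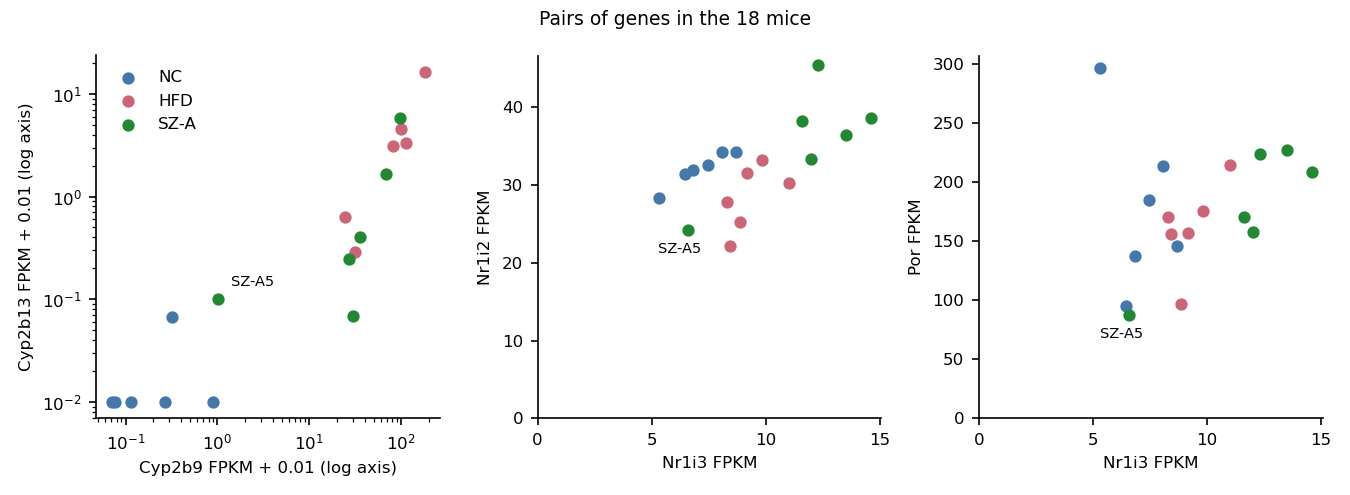
Each point is 1 of the 18 mice, coloured by group, for Cyp2b13 against Cyp2b9 (FPKM + 0.01, log axes), Nr1i2 against Nr1i3 and Por against Nr1i3 (FPKM, linear axes from 0), with SZ-A5 marked. NC mice have Cyp2b9 below 0.88 FPKM and Cyp2b13 at 0 in 5 of 6, and SZ-A5 lies apart from the other SZ-A mice in all 3 panels.

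As a description over the 18 mice, the genes outside the set with the pattern most like that of Cyp2b9 were Ildr2 (r = 0.967), Enpp2 (0.955), Abhd14b (0.941) and Acsm3 (0.941). These r hold the difference between groups as well as that between mice. Ildr2 averaged 3.55, 12.5 and 8.38 FPKM in NC, HFD and SZ-A. For Nr1i3 they were Idh1 (0.911), Slc16a12 (0.909), Aco1 (0.905) and the clock repressor Cry2 (0.884). For Cyp2b10, which NC1 and NC5 set apart, they were Tldc1 (0.848), Hdgfl2 (0.837), Fam98b (0.828) and Pttg1 (0.805).

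Target genes of the 2 receptors were taken from lists drawn up with earlier results of these data known. Of 17 tested CAR targets outside the set, 3 rose and 4 fell between HFD and NC, with a median log2 difference of 0.14 against -0.03 over all genes. Cyp2a5, which oxidises coumarin and nicotine, rose from 98.4 ± 45.8 to 342 ± 84.0 FPKM (log2 1.91, SE 0.30, limma adjusted p = 0.000917), and Aldh1a1, which makes retinoic acid, from 234 to 449 FPKM (adjusted p = 0.00187). The carboxylesterase Ces2a fell from 109 to 51.6 FPKM (limma adjusted p = 0.000489) and the stress gene Gadd45b from 8.83 to 3.74 FPKM (adjusted p = 0.00235). Without NC6 3 rose and 3 fell, and with equal total FPKM 7 rose and 3 fell.

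Of 10 PXR targets 3 rose and 3 fell between HFD and NC, with a median of -0.08. Cyp3a11, the usual PXR readout, fell from 588 ± 100 to 184 ± 70.8 FPKM (log2 -1.74, SE 0.22, limma adjusted p = 0.000242), and so did the organic anion carrier Slco1a4, from 23.4 to 6.78 FPKM (adjusted p = 0.000253). The drug exporter Abcb1a rose from 0.372 to 1.63 FPKM (limma adjusted p = 0.00120) and the flavin monooxygenase Fmo5 from 98.1 to 161 FPKM (adjusted p = 0.00328). Each of Cyp3a11, Slco1a4 and Abcb1a lay apart from NC in all HFD mice. The level of Nr1i2 itself differed by -0.19 on the log2 scale in that comparison, as above.

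Between SZ-A and HFD none of the 128 pathway genes tested outside the set, CAR and PXR targets included, was called by limma or by voom on whole fragments, while 26 had an unadjusted limma p under 0.05. Of the 17 CAR targets 7 had an unadjusted p under 0.05, and Gstm3 had the smallest adjusted p of the list (3.37 FPKM in SZ-A and 9.63 in HFD, log2 -1.53, SE 0.33, limma adjusted p = 0.0865), followed by Cyp2c54 (220 and 106 FPKM, log2 1.04, adjusted p = 0.117). All 10 PXR targets had a value below 0, with a median of -0.26 against 0.03 over all genes, where 56.2% lay above 0. Gsta1 had the smallest adjusted p among them (0.851 FPKM in SZ-A and 4.45 in HFD, adjusted p = 0.150). Without SZ-A5 Cyp2c54 was called higher (limma adjusted p = 0.0438).

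Between SZ-A and NC 1 CAR target rose and 3 fell. Cyp1a2, which oxidises caffeine, rose from 117 to 226 FPKM (limma adjusted p = 0.00654), and Htatip2, Ces2a and Gadd45b fell. Without SZ-A5 the counts were 5 and 3. The call of Gadd45b was lost without any 1 of 8 of the 12 mice (limma adjusted p up to 0.0816) and held without NC2, NC6, SZ-A4 or SZ-A5. Of the PXR targets 1 rose (Abcb1a) and 3 fell, Cyp3a11 to 135 ± 81.2 FPKM (log2 -2.31, SE 0.31, limma adjusted p = 0.00149), Slco1a4 and Cyp3a25. The call of Cyp3a25 held without NC4, SZ-A2, SZ-A4 or SZ-A5 alone and was lost without each of the other 8 (limma adjusted p up to 0.0788), NC6 included, and that of Abcb1a was lost without NC3, NC4, SZ-A1, SZ-A2 or SZ-A3 (up to 0.0657).

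Of 21 partners and regulators of CAR and PXR none rose and 2 fell between HFD and NC, where 9.49% of all tested genes were called lower. They were the phosphatase subunit Ppp2ca (20.2 to 16.2 FPKM, limma adjusted p = 0.00508) and the scaffold Rack1 (64.9 to 51.2 FPKM, limma adjusted p = 0.0138). Neither passed with equal total FPKM in every mouse (limma adjusted p = 0.262 and 0.236). The partner Rxra averaged 98.5, 99.5 and 109 FPKM in NC, HFD and SZ-A, and the hepatocyte regulator Hnf4a 184, 153 and 174 FPKM, with no call in any comparison. The coactivator Ppargc1a averaged 2.31, 1.23 and 1.15 FPKM and was not called either. No gene of this list was called between SZ-A and HFD or between SZ-A and NC.

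Of 13 genes that supply P450s with electrons or heme, beside Por, 3 rose (4 without NC6) and none fell between HFD and NC. The heme-degrading enzyme Hmox1 went from 12.0 to 24.7 FPKM (log2 1.03, SE 0.11, limma adjusted p = 8.00e-05). The electron carriers Cyb5b (47.1 to 71.3 FPKM, limma adjusted p = 0.00801) and Cyb5a (364 to 467 FPKM, adjusted p = 0.0183) rose as well. Alas1, the first enzyme of heme synthesis, averaged 85.4, 187 and 177 FPKM in the 3 groups with no call (limma adjusted p = 0.0692 for HFD against NC). Like Cyp2b10 and Por, it was highest in NC5 of the NC mice (204 FPKM).

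Cyp2b9 and Cyp2b13 belong to the female-predominant liver genes, and other genes of that kind were so low in these livers that only 5 of 18 could be tested. Of those 5, 2 rose and 2 fell between HFD and NC. Cyp2c40 fell (2.17 to 0.275 FPKM, limma adjusted p = 0.00457), as did Cyp17a1, while the peroxisomal carrier Abcd2 (3.77 to 6.44 FPKM, adjusted p = 0.0181) and Atp6v0d2 rose. The call of Atp6v0d2 held only without NC2 or HFD6 and was lost without each of the other 10 mice (limma adjusted p up to 0.0825), and that of Cyp17a1 held only without NC3, NC5, NC6 or HFD1 (up to 0.0906). With no filter on low values Abcd2, Atp6v0d2 and Cyp17a1 were not called (limma adjusted p = 0.0587, 0.119 and 0.139). Of the 13 that the filter left out, 3, singled out after their values were seen, were higher in every HFD mouse than in every NC mouse. Among tested genes this held for 5.48%, and no such share was taken for genes this low. NC and HFD means were 0.0179 and 1.002 FPKM for Hao2, 0.174 and 1.80 FPKM for Slc22a27 and 0.125 and 0.638 FPKM for Cyp2a4. The fit with no filter called these 3 higher (limma adjusted p = 0.00410, 0.000662 and 0.00882). The groups overlapped for the other 10. Cyp2a4 shares most of its sequence with Cyp2a5, so its fragments are uncertain.

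Of 18 tested male-predominant genes 1 rose and 5 fell between HFD and NC, with a median of -0.51. Serpina1e fell from 2184 ± 307 to 566 ± 562 FPKM (limma adjusted p = 0.00246), Cyp4a12b from 32.6 to 10.04 FPKM (adjusted p = 0.00137) and the fatty acid elongase Elovl3 from 169 to 46.2 FPKM (adjusted p = 0.00278), and Nudt7 rose. Between SZ-A and HFD none was called, 7 had an unadjusted p under 0.05, and all 18 lay above 0 with a median of 0.54. The smallest adjusted p was that of the organic anion carrier Slco1a1 (71.4 FPKM in SZ-A and 22.6 in HFD, limma adjusted p = 0.1004), followed by Hsd3b5 (75.0 and 12.1 FPKM, adjusted p = 0.126). With equal total FPKM the median was 0.36.

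Of 13 growth hormone and sex steroid signalling genes 3 rose between HFD and NC, Igfals (31.3 to 52.0 FPKM, limma adjusted p = 0.0193), Stat5a (1.62 to 2.72 FPKM, adjusted p = 0.0199) and the receptor Ghr (36.6 to 55.5 FPKM, adjusted p = 0.0408). The call of Ghr held only without NC2, NC5, NC6 or HFD1 and was lost without each of the other 8 mice (limma adjusted p up to 0.0786). Stat5b averaged 10.6, 11.5 and 11.8 FPKM in NC, HFD and SZ-A, and Bcl6, a repressor of growth hormone targets, 4.96, 5.39 and 6.17 FPKM, without a call in any comparison. None of the list was called between SZ-A and HFD, and 1 (Igfals) rose between SZ-A and NC, joined by Ghr without NC6.

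The PAR-bZIP output factors of the liver clock are known to drive CAR, Por and Alas1, so the clock genes were counted beside Nr1i3. Of 13 tested genes 3 rose and 1 fell between HFD and NC, with a median of 0.43. Dbp rose from 7.42 ± 5.49 to 24.8 ± 4.72 FPKM (log2 2.17, SE 0.52, limma adjusted p = 0.00991), Per3 from 0.406 to 1.62 FPKM (adjusted p = 0.00241) and Cry2 from 3.57 to 4.79 FPKM (adjusted p = 0.00876), while Clock fell from 4.87 to 3.21 FPKM (adjusted p = 0.0276, and up to 0.0603 without NC3, NC4, NC6, HFD1, HFD2 or HFD4). In SZ-A Dbp averaged 31.5 FPKM and 4 genes rose against NC, 7 without SZ-A5 and 3 without NC6. None was called between SZ-A and HFD.

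Dbp, Tef and Hlf, the 3 PAR-bZIP factors, were lowest in the NC and SZ-A mice with the lowest Nr1i3. SZ-A5 had the lowest Dbp, Tef and Hlf of the SZ-A group (7.22, 10.8 and 6.23 FPKM, against group medians of 34.6, 26.7 and 12.6), and NC5 the lowest of the NC group (0.990, 6.41 and 5.22 FPKM, against 6.39, 13.5 and 8.59). In HFD the lowest Dbp and Tef were in HFD3 and the lowest Nr1i3 in HFD6. Por and Alas1, named above beside CAR, went the other way in NC5. It held the highest Por (297 FPKM) and the highest Alas1 (204 FPKM) of the NC group. Por was the lowest of its group in SZ-A5 (87.5 FPKM) and in HFD3 (97.3 FPKM). The part of the clock hour in the Nr1i3 levels was not tested, since the time at which each liver was taken is not given in the sources used here.

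CAR and the Cyp2b enzymes are known as pericentral, so genes that mark either side of the liver lobule were counted too. Of 9 pericentral genes 4 rose and 1 fell between HFD and NC, among them Lect2 (53.7 to 121 FPKM, limma adjusted p = 0.000480) and Glul (296 to 453 FPKM, adjusted p = 0.000762). Of 9 periportal genes none rose and 8 fell, among them Cps1 (1181 to 441 FPKM, adjusted p = 0.000152) and Pck1 (1167 to 525 FPKM, adjusted p = 0.000253). No gene of the 2 lists was called between SZ-A and HFD. The part of zonation in the levels of Cyp2b9, Cyp2b13 and Nr1i3 was not tested.

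**Figure D5:**
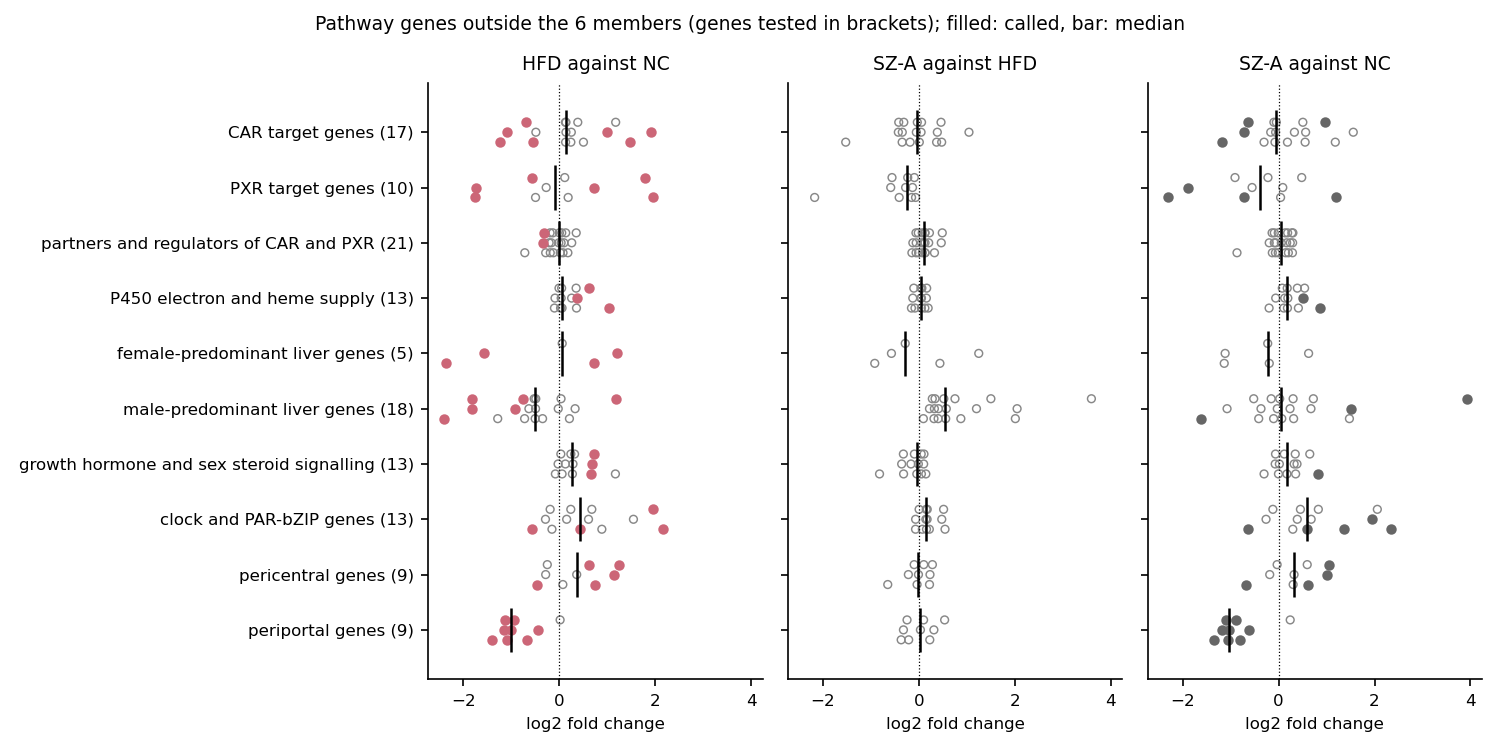
Log2 fold change of each tested gene outside the 6 members, by list (rows) and comparison (panels), with called genes filled, others open and a bar at the list's median. Periportal genes lie to the left in both comparisons with NC (medians -1.02 and -1.04), no gene is called in the middle panel, and all 18 male-predominant genes lie above 0 there.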

How the data were processed

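Liver RNA of 18 mice was sequenced as poly-A libraries with paired reads of 150 bases. Per the labels, HISAT2 (2.0.5), featureCounts (1.5.0-p3) and the build mm10 (GRCm38) were used, and the authors deposited 1 table of FPKM with gene length. FPKM times gene length gave whole fragments in 100% of values (tolerance 0.05), from which the depth was taken. The authors tested counts with DESeq2, which was not repeated. Limma on the deposited FPKM took its place, with voom on the whole fragments as an alternative. At the same thresholds of adjusted p and fold change the paper reports many more genes between SZ-A and HFD than the 15 called here. The reason for that gap was not tested.

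The members and lists were chosen with earlier results of these data known, so the members are given without p-values between groups, and whether they stood past the rule for calls is a description. Groups and replicate numbers came from the sample titles. The 10216 genes whose mean over all mice reached 1 FPKM were fitted on log2(FPKM + 0.1) with limma (3.58.1, R 4.3.3), each pair of groups alone, with an intensity trend and Benjamini-Hochberg adjustment over all genes. A fold change is on that scale and understates that of low genes. The threshold for a call was 0.05 for the adjusted p, with a fold change above 1.2.

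Named genes were the members, up to 4 genes per list and comparison with the smallest adjusted p (2 where none was called), the other Cyp2b genes, the 4 genes most like each of Cyp2b9, Cyp2b10 and Nr1i3, and Cyb5a, Alas1, Dbp, Tef, Hlf, Rxra, Hnf4a, Ppargc1a, Stat5b, Ghr and Bcl6. Some that the rule names were given only within their list's count. The values of 1 gene are not reported here. Correlations used exact permutation tests (SciPy 1.17.1). Upstream bases came from RefSeq (GRCm38.p6), coding sequences from GENCODE. Alternatives were 2 pseudocounts, 2 filters, 2 scalings, a joint fit, sample weights, no trend, voom on whole fragments, a replicate block, 2 call rules and leaving out each mouse. No 2 mice of a group agreed within sampling noise.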

Additional observations from a re-analysis of the deposited data

Results flagged for a closer look

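A value stood apart where the gap between the highest or lowest mouse and its neighbour took more than 0.625 of the range of its group of 6. For normally distributed values chance gives this in about 1 of 20 groups, a rate that need not hold for FPKM. In all 216 groups were examined, and the number of values that stood apart is not read against that rate. Among the members, the mice that stood apart were NC1 for Cyp2b9 (0.879 FPKM), NC6 for Cyp2b13 (0.0565 FPKM, the 1 NC mouse above 0), HFD4 and SZ-A2 for Cyp2b13 (16.3 and 5.78 FPKM) and SZ-A5 for Nr1i3 (6.57 FPKM). SZ-A5 also stood apart, as the lowest SZ-A mouse, for Cyb5a (331 FPKM), Pgrmc1 (469 FPKM), Alad (49.3 FPKM), Fam98b (3.04 FPKM), Idh1 (91.9 FPKM) and Aco1 (35.3 FPKM).

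NC5, 1 of the 2 mice with high Cyp2b10, stood apart as the highest NC mouse for Alas1 (204 FPKM), Cyp17a1 (103.9 FPKM) and Hdgfl2 (7.61 FPKM). NC1, the other, did so for Ildr2 (4.89 FPKM), the gene most like Cyp2b9. NC6, whose diet label goes against its title, did so for Hsd3b5 (24.7 FPKM). HFD3 was highest for Serpina1e (1665 FPKM) and Hsd3b5 (36.0 FPKM) and lowest for Rack1 (43.6 FPKM), and HFD2 stood apart for Abhd14b (45.4 FPKM). In SZ-A the others were SZ-A4 for Cyp17a1 (31.3 FPKM), SZ-A2 for Cyp2a4 (0.638 FPKM) and SZ-A6 for Stat5b (9.87 FPKM). In all 23 values stood apart, of which 7 were of SZ-A5.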

How the results depend on the processing

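Cyp2b9 and Nr1i3 were higher in HFD and SZ-A than in NC under every alternative run. Cyp2b9, Cyp2b10 and Cyp2b13 were lower in SZ-A than in HFD under each of them as well. Of the 2 scalings, the median-ratio one could hardly move a value, since its factors were 1.003 to 1.010 in all mice. Only equal totals put the scaling to a test. With a pseudocount of 1 the log2 difference from NC was 5.85 for Cyp2b9 and 1.95 for Cyp2b13 in HFD, and 4.45 and 0.85 in SZ-A. Cyp2b13 moved to 7.38 in HFD and 4.98 in SZ-A with a pseudocount of 0.01, and to 6.90 and 4.57 with voom on whole fragments, since NC held 2 fragments of it. Voom did not call Cyp2b9 between SZ-A and NC, and sample weights called Cyp2b13 there. Without a filter Nr1i3 was not called in either comparison with NC, nor with all 18 mice in 1 fit for HFD against NC. Nr1i2 of HFD against NC came to 0.0051 with equal total FPKM in every mouse.

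Equal totals moved the median over all genes from -0.03 to 0.15 for HFD against NC and from 0.03 to -0.15 for SZ-A against HFD. It called 2434 genes in the first, 2100 of them higher (1092 of 2062 without it), and 216 in the second, 10 of them higher (8 of 15 without it). Urod, of heme synthesis, turned to -0.0231 with it for SZ-A against HFD. The cause was not tested. For SZ-A against HFD the count of 15 became 0 with no filter, 26 with a mean of at least 5 FPKM, 35 with all mice in 1 fit, 233 with sample weights, 27 with voom and 7 with a fold over 2, and ran from 2 to 49 as each mouse was left out, lowest without HFD4 or SZ-A6 and highest without SZ-A2. It was 15 without HFD3 and 31 without SZ-A5. Pathway genes called there went from 0 to 3 with equal totals, 1 with all mice in 1 fit and 6 with sample weights, and from 0 to 1 as mice were left out.

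For HFD against NC the count was 1271 with a mean of at least 5 FPKM and 371 with a fold over 2, with 25 of 48 pathway genes left by the latter. For SZ-A against NC, 981 genes became 564 with no filter, 1682 with sample weights, 205 with a fold over 2 and 601 to 1179 as mice were left out, lowest without SZ-A3 and also low without SZ-A6 (629). The 31 pathway genes became 17 with no filter and 17 with a fold over 2. Of the named pathway genes, 7 of 32 called for HFD against NC and 11 of 20 for SZ-A against NC lost their call with no filter.

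Deviations of mice with the same replicate number were mostly weakly correlated (-0.117 to 0.292, 3 of 18 over 0.1, 5 of 18 best with their own number). The highest was that of SZ-A2 with HFD2. Whether the numbers pair the mice cannot be told from this, since mice may share a cage or a batch without such a correlation. With the replicate number as a block, 1647, 0 and 922 genes were called for HFD against NC, SZ-A against HFD and SZ-A against NC. Values under about 0.1 FPKM rest on a few fragments and cannot be ranked at this depth.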
